A study of Mus musculus with 76 samples.

Results

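Fast-inactivating A-type potassium channels are described here through 7 genes of their Kv4 complex, measured in single hippocampal interneurons of newborn mice. The genes are Kcnd2 and Kcnd3, Kcnip1, Kcnip2 and Kcnip4, and Dpp6 and Dpp10, which are 7 of 35825 gene symbols in the deposited tables, and all 7 have values. The members were chosen by earlier readings of their genotype values in these same cells, so the genotype contrast below is a description with no test.

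The cells came from the CA1 region of mice at postnatal day 4 and were obtained by Patch-seq, a method that aspirates a recorded neuron through its patch pipette and sequences its RNA. Mut mice carried gephyrin with the S268/270A change at 2 serines, WT mice carried unchanged gephyrin, and gephyrin is the scaffold of inhibitory synapses. All groups shared an Nkx2.1-Cre;Ai14 background, in which cells descended from Nkx2.1-expressing progenitors of the medial ganglionic eminence (MGE) turn red with tdTomato, and red cells of the pyramidal cell layer were taken. The cells compared were 19 Mut female, 9 WT female, 15 Mut male and 19 WT male cells, 62 of the 76 labelled cells. Of the other 14, the authors removed 9 by a quality filter and marked 5 WT cells (1 female, 4 male) as contaminated. No animal is named in the labels, so cells are not replicates, and each group is also given as 1 sum of its cells.

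A used cell held 2946456 to 12070780 counts. Lhx6, the MGE transcription factor, reached 10 CPM (counts scaled to a library of 1000000) in 57 of the 62 cells. Transcripts of other cell types were present: pyramidal Neurod6 reached 10 CPM in 31 cells, and 5 cells without a contamination mark had 6 or more of 11 microglial markers at that level. Cells also differed in how many genes they showed, with a median of 3936 genes at 10 CPM or more in Mut cells and 4179 in WT cells.

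Kv4 channels open below spike threshold and inactivate quickly, a current that delays firing and damps the spread of spikes into dendrites. Kcnd2 (Kv4.2) and Kcnd3 (Kv4.3) form the pore. The KChIP proteins, from the Kcnip genes, are calcium-binding cytoplasmic subunits that bring Kv4 to the membrane and slow its inactivation. DPP6 and DPP10 are membrane proteins related to dipeptidyl peptidases but without enzyme activity, and they speed the channel's gating. In the rodent hippocampus, Kv4.2 is known mainly from pyramidal neurons, while Kv4.3, KChIP1 and DPP10 are known from interneurons.

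In the GRCm38 annotation (GENCODE M21) all 7 are protein-coding genes. Kcnd2 lies on chromosome 6 at 21215503 to 21729805 on the plus strand, and Kcnd3 on chromosome 3 at 105452330 to 105674002 on the plus strand. Kcnip1 lies on chromosome 11 at 33629339 to 33993152, Kcnip2 on chromosome 19 at 45791839 to 45816061 and Kcnip4 on chromosome 5 at 48389502 to 49524907, all on the minus strand. Dpp6 lies on chromosome 5 at 26817203 to 27727505 on the plus strand, and Dpp10 on chromosome 1 at 123321471 to 124045559 on the minus strand. Most of them are very long: Kcnip4 spans 1135406 bases and Dpp6 910303, while Kcnip2 spans 24223. Exons of Kcnd3 overlap the antisense gene Kcnd3os by 165 bases, and exons of Kcnip4 overlap 5730480H06Rik by 105 and Gm20700 by 99 bases on the opposite strand. Whether the counting used strand is not given in the sources used here, so reads in these stretches could not be assigned to a strand.

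Each gene was present in some cells and nearly silent in others. A cell is said to carry a gene at 10 CPM or more of its own counts. Dpp10 was carried by 40 of 62 cells, Dpp6 by 34, Kcnd2 and Kcnip1 by 32 each, Kcnip2 by 28, Kcnd3 by 13 and Kcnip4 by 9, whereas the median tested gene was carried by 10 cells. Kcnip1 carriers had a median of 297 CPM and a lowest value of 15.996 CPM. Per length, the carriers' median was highest for Kcnip1, at 230 TPM (a length-scaled measure, quartiles 122 to 320). Kcnip2 followed with 97.3 TPM (28.5 to 179), Dpp10 with 58.7 TPM (28.5 to 97.4) and Dpp6 with 48.6 TPM (26.5 to 107). Kcnip4 had 28.8 TPM (22.7 to 40.02), Kcnd2 26.4 TPM (10.6 to 55.8) and Kcnd3 19.7 TPM (8.41 to 36.3). Kcnip1 carriers and Kcnip2 carriers overlap in their quartiles, as do all neighbours further down this order.

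**Figure D1:**
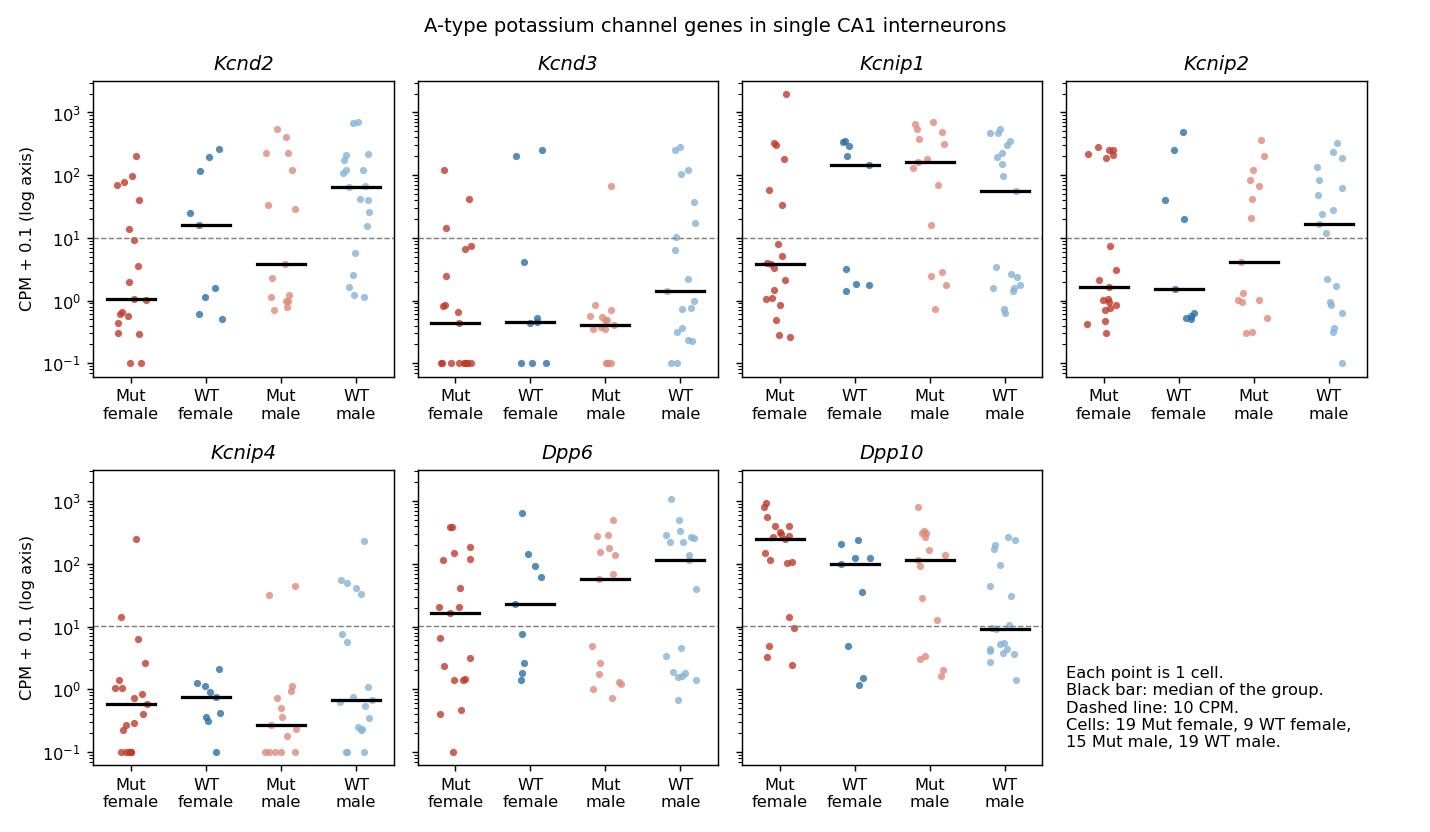
CPM of each gene in each of the 62 cells (log axis, 0.1 added), by group. Points are cells, black bars are group medians and the dashed line is 10 CPM. In every group except the WT female cells for Kcnip4, some cells lie above the line and others at a few CPM or less.

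Among the pore subunits, Kcnd2 was the more widespread. Its level ran from 0 to 205 CPM over Mut female cells (median 0.966) and from 0.412 to 265 CPM over WT female cells (median 16.1). In males it ran from 0.595 to 537 CPM over Mut cells (median 3.67) and from 1.04 to 707 CPM over WT cells (median 63.6). Most of each range was shared, with the highest WT cell above the highest Mut cell in both sexes. The medians of both Mut groups lay under 10 CPM while those of both WT groups lay above it. Kcnd2 was carried by 6 of 19 Mut female cells (31.6%, exact 95% binomial interval 12.6 to 56.6%), against 5 of 9 WT female cells (55.6%, 21.2 to 86.3%). In males it was carried by 7 of 15 Mut cells (46.7%, 21.3 to 73.4%), against 14 of 19 WT cells (73.7%, 48.8 to 90.9%). These intervals overlap, and they cover counting error only, since cells of 1 animal are not independent.

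Kcnd3 was carried by fewer cells than Kcnd2 in every group. It was carried by 3 of 19 Mut female cells, at 122, 41.1 and 14.4 CPM, against 2 of 9 WT female cells, at 254 and 200 CPM. In males it was carried by 1 of 15 Mut cells, at 66.7 CPM, against 7 of 19 WT cells, which ranged from 10.08 to 279 CPM. The group medians were all low: 0.337 CPM in Mut females, 0.349 in WT females, 0.314 in Mut males and 1.30 in WT males. Every Mut carrier lay below the lower of the WT female carriers, but within the range of the WT male carriers.

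In the sums of cells, Kcnd3 stood at 6.49 CPM in Mut females (Poisson interval 6.05 to 6.96) and 59.6 CPM in WT females (57.5 to 61.7), a log2 ratio of -3.02. Mut males had 3.71 CPM (3.37 to 4.08) and WT males 42.8 CPM (41.7 to 43.9), a log2 ratio of -3.22. These CPM are scaled between the sums (TMM), and a ratio takes 1 CPM added to both sides. Mut male cell 1 held 93.2% of the Kcnd3 counts of its sum. A large share in 1 cell is common in these sums. For the median gene tested, the highest cell held 44.3% in Mut females, 60.0% in WT females, 46.4% in Mut males and 42.2% in WT males. Over all settings that leave out 1 cell the ratio stayed negative, from -3.69 to -1.93 in females and from -5.10 to -2.74 in males. Kcnd2 was lower in the Mut sums too, at 39.4 CPM in Mut females against 75.4 CPM in WT females, and at 81.4 CPM in Mut males against 120 CPM in WT males, with log2 ratios of -0.92 and -0.56. With single cells left out these ran from -1.72 (without Mut female cell 22) to -0.37 (without WT female cell 6) and from -0.93 (without Mut male cell 3) to -0.093 (without WT male cell 16).

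Where the pore genes were present, Kcnd2 usually predominated. In the 29 cells where Kcnd2 and Kcnd3 together reached 10 TPM, Kcnd2 was the higher in 22 and Kcnd3 in 7. Kcnd2 made up 90% or more of the pair in 18 of the 29 cells, and Kcnd3 in 2, both of them WT female cells. The Mut cells showed Kcnd3 as the higher gene in 1 of 11 cells, and the WT cells in 6 of 18. Across the 62 cells their levels had a Spearman correlation of 0.02, with 10 cells carrying both.

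Of the KChIP genes, Kcnip1, the form known from GABAergic interneurons, was the most abundant. Over Mut female cells it ran from 0.164 to 1937 CPM (median 3.67), and over WT female cells from 1.34 to 348 CPM (median 143). Over Mut male cells it ran from 0.642 to 709 CPM (median 165), and over WT male cells from 0.525 to 537 CPM (median 55.3). The order of the medians was thus opposite in the sexes, with Mut below WT in females and above it in males. Carriers numbered 6 of 19 Mut female and 5 of 9 WT female cells, and 11 of 15 Mut male and 10 of 19 WT male cells.

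The Kcnip1 sum of Mut females rested on a lone cell. The female sums were 183 CPM for Mut and 162 CPM for WT, a log2 ratio of 0.17, and Mut female cell 17 held 72.3% of the Mut counts at 1937 CPM. Without that cell the ratio was -1.56. The male sums were 262 CPM for Mut and 135 CPM for WT, a log2 ratio of 0.95, which ran from 0.64 to 1.17 when single cells were left out.

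Kcnip2, a KChIP also found in heart muscle, showed tight high values in Mut females. Its 6 Mut female carriers lay between 185 and 282 CPM, against 4 WT female carriers at 19.9, 40.8, 252 and 487 CPM. The 7 Mut male carriers ran from 20.4 to 365 CPM, and the 11 WT male carriers from 11.8 to 330 CPM. Between the Mut female carriers and the next cell, at 7.41 CPM, there was a wide gap, while in the other groups carriers were spread. The sums stood at 78.3 CPM in Mut females against 121 CPM in WT females, and at 65.1 CPM in Mut males against 65.3 CPM in WT males, with log2 ratios of -0.62 and -0.0047. WT female cell 1 held 78.7% of its sum, and without it the female ratio was 1.23.

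Kcnip4, a KChIP with a splice form that slows inactivation strongly, was the rarest of the 7. It was carried by 2 of 19 Mut female cells, at 249 and 14.3 CPM, and by 0 of 9 WT female cells, whose highest was 2.01 CPM. In males it was carried by 2 of 15 Mut cells, at 44.5 and 31.6 CPM, and by 5 of 19 WT cells, from 32.9 to 229 CPM. For 0 of 9 cells the exact interval of the share reaches 33.6%. The log2 ratio of the sums was 2.87 in females and -1.93 in males, and without Mut female cell 2, which held 88.9% of its sum, the female ratio was 0.41. Of the 7 genes Kcnip4 alone had opposite signs in the sexes, against 49.2% of all genes tested.

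Where the KChIP genes together reached 10 TPM, in 41 cells, Kcnip1 was highest in 28, Kcnip2 in 12 and Kcnip4 in 1. Kcnip1 led in 11 of 12 such Mut male cells and 8 of 13 WT male cells. Among females, it led in 5 of 11 Mut cells and 4 of 5 WT cells. Both Kcnip1 and Kcnip2 were carried by 19 cells, where the product of their shares gives 14.5. Their levels had a Spearman correlation of 0.35 across the 62 cells, 0.19 over Mut cells and 0.52 over WT cells.

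Dpp10 had the highest median per length of the 7 genes in Mut females, at 59.6 TPM, followed by Dpp6 at 5.08 TPM. In CPM it ran from 2.31 to 927 CPM over Mut female cells (median 249), and from 1.07 to 240 CPM over WT female cells (median 98.2). In males it ran from 1.51 to 819 CPM over Mut cells (median 113), and from 1.30 to 273 CPM over WT cells (median 9.19). The ranges overlapped, but 10 of 19 Mut female cells lay above 240 CPM, the highest WT female cell. Carriers numbered 15 of 19 Mut female cells (78.9%, interval 54.4 to 93.9%) and 6 of 9 WT female cells (66.7%, 29.9 to 92.5%). In males they numbered 11 of 15 Mut cells (73.3%, 44.9 to 92.2%) and 8 of 19 WT cells (42.1%, 20.3 to 66.5%).

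The Dpp10 sums were spread over many cells. They stood at 240 CPM in Mut females (Poisson interval 237 to 243) and 90.01 CPM in WT females (87.5 to 92.6), a log2 ratio of 1.41. Mut males had 160 CPM (157 to 162) and WT males 54.7 CPM (53.4 to 56.0), a log2 ratio of 1.53. No cell held more than 14.6% of the Dpp10 counts in Mut females, 26.5% in WT females, 21.5% in Mut males or 23.5% in WT males. With single cells left out the ratio ran from 1.22 to 1.61 in females and from 1.27 to 1.82 in males. In females that is the narrowest range of the 7 genes.

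Dpp6, the sister subunit, did not share this order. It ran from 0 to 391.7 CPM over Mut female cells (median 16.5), and from 1.30 to 650 CPM over WT female cells (median 23.1). In males it ran from 0.620 to 497 CPM over Mut cells (median 57.2), and from 0.570 to 1086 CPM over WT cells (median 115). Carriers made up nearly the same share everywhere, with 10 of 19 Mut female, 5 of 9 WT female, 8 of 15 Mut male and 11 of 19 WT male cells. The sums stood at 77.3 CPM in Mut females against 156 CPM in WT females, and at 130 CPM in Mut males against 154 CPM in WT males, with log2 ratios of -1.004 and -0.25. WT female cell 9 alone held 74.3% of the Dpp6 counts of WT females, where the highest cell held 60.0% for the median gene tested. Without cell 9 the female ratio was 0.74.

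The higher of the DPP genes varied with group. Of 44 cells in which they reached 10 TPM together, Dpp10 was the higher in 25 and Dpp6 in 19. Dpp10 led in 12 of 15 Mut female cells (80.0%, interval 51.9 to 95.7%) and 6 of 7 WT female cells (85.7%, 42.1 to 99.6%). In males it led in 5 of 10 Mut cells (50%, 18.7 to 81.3%) and 2 of 12 WT cells (16.7%, 2.09 to 48.4%). The WT male cells were thus the group where Dpp6 led most often, and their interval overlaps that of the Mut males. How the groups differ in these shares was not tested.

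**Figure D2:**
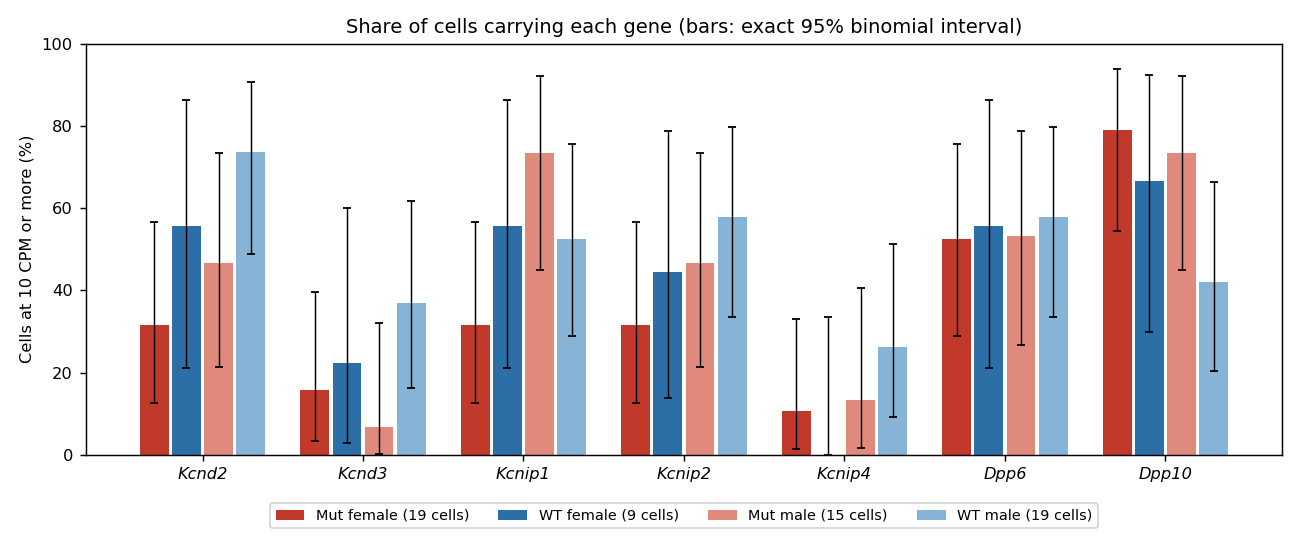
Share of cells at 10 CPM or more (%) for each gene in Mut female, WT female, Mut male and WT male cells, with exact 95% binomial intervals as bars. Kcnd2 and Kcnd3 are lower in Mut than in WT of both sexes, Dpp10 is higher in Mut of both sexes, and the intervals overlap for every gene within a sex.

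Read over the 7 genes, the genotype ratios did not run one way. In females 2 of the 7 had a log2 ratio of 1 or more (Kcnip4 and Dpp10), against 23.1% of the 16435 genes tested, and 2 had -1 or less (Kcnd3 and Dpp6), against 18.2%. In males 1 had 1 or more (Dpp10), against 16.7% of genes tested, and 2 had -1 or less (Kcnd3 and Kcnip4), against 17.4%. Kcnd3 was at -1 or less in both sexes, where 3.77% of genes are, and Dpp10 at 1 or more in both, where 5.11% are. A further 3 genes, Kcnd2, Kcnip2 and Dpp6, were below 0 in both sexes, so that 4 of 7 were, against 25% of genes tested. Kcnip1 and Dpp10 were above 0 in both, against 25.1%. Nothing is read from these counts, because the genes were chosen with this contrast known. The median over the 7 genes was -0.62 in females and -0.25 in males, beside 0.02 and -0.02 over all genes tested.

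**Figure D3:**
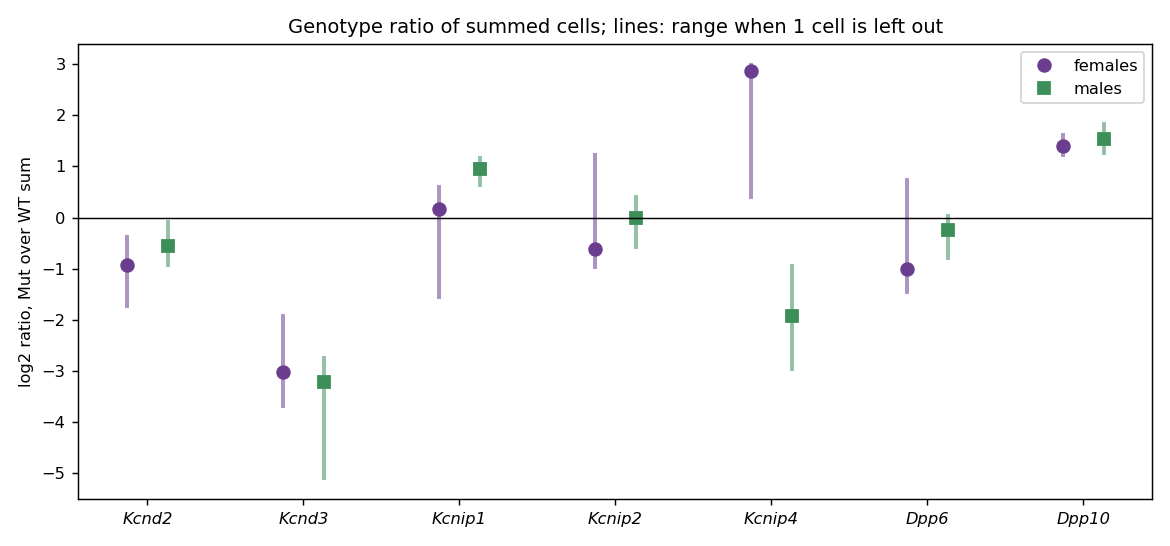
Log2 ratio of the Mut sum over the WT sum for each gene, in females (circles) and males (squares). Lines show the lowest and highest value when 1 cell is left out; those of Dpp10 stay above 0 and those of Kcnd2 and Kcnd3 below 0 in both sexes, while those of Kcnip1, Kcnip2 and Dpp6 in females, and of Kcnip2 and Dpp6 in males, cross 0.

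Pyramidal transcripts moved with some of these values. Kcnd2 was carried by 21 of the 31 cells that carried Neurod6 and by 11 of the 31 that did not. Neurod6 was carried by 5 of 19 Mut female, 4 of 9 WT female, 10 of 15 Mut male and 12 of 19 WT male cells. The 10 pyramidal markers summed to 7.54 to 1126 CPM in Mut female cells (median 199) and 142 to 764 CPM in WT female cells (median 398). In males they summed to 14.1 to 2008 CPM in Mut cells (median 466.04) and 45.2 to 2264 CPM in WT cells (median 566), and none of the 10 was at 0 throughout a group. Without the Neurod6 carriers, which leaves 14 Mut female, 5 WT female, 5 Mut male and 7 WT male cells, the Kcnd2 ratio was -3.00 in females and -2.23 in males. In those cells Kcnip2 was at 2.96 in females and 1.84 in males and Dpp6 in males at 1.08, while Dpp10 was at 1.21 and 3.78 and Kcnd3 at -3.50 and -3.97. Neurod6 carriers also showed more genes, with a median of 4327 at 10 CPM or more against 3667 in the other cells. Microglial markers touched Kcnd2 as well. WT female cell 6 held 41.8% of the Kcnd2 counts of its sum, where the highest cell held 60.0% for the median gene tested. That cell had 10 of the 11 microglial markers at 10 CPM or more. These 11 markers summed to 1.31 to 7636 CPM in Mut female cells (median 13.2) and 0.922 to 943 CPM in WT female cells (median 8.65). In males they summed to 1.57 to 2529 CPM in Mut cells (median 18.1) and 5.05 to 1746 CPM in WT cells (median 51.2), and none was at 0 throughout a group. Without the 5 cells with 6 or more of these markers, the Kcnd2 ratio was -0.28 in females and -0.48 in males. Other marker lists moved too. All 5 oligodendrocyte precursor markers had a log2 ratio of 1 or more in females (median 2.84), where they summed to 0 to 1916 CPM in Mut cells (median 3.17) and 0.233 to 194 CPM in WT cells (median 0.837, with Olig2 and Sox10 at 0 in all of them). All 4 red cell markers were at -1 or less in males (median -3.28), where they summed to 11.02 to 1216 CPM in Mut cells (median 197) and 2.75 to 13445 CPM in WT cells (median 367). Of 9 astrocyte and radial glia markers, 4 were at 1 or more and 2 at -1 or less in females, and 2 and 5 in males. Over all genes tested, 23.1% were at 1 or more and 18.2% at -1 or less in females, and 16.7% and 17.4% in males. Of 16 MGE interneuron markers, 3 were at 1 or more in both sexes, against 5.11% of all genes tested. They were Sox6 (2.07 in females and 2.16 in males), Sst (1.94 and 4.04) and Npy (1.65 and 1.14). Sst was carried by 7 of 19 Mut female, 3 of 9 WT female, 4 of 15 Mut male and 7 of 19 WT male cells. In the same order of groups, Sox6 was carried by 8, 4, 8 and 5 cells and Npy by 16, 8, 13 and 17 cells. In the list of 6 markers of the caudal ganglionic eminence, Prox1 was at 5.57 in females and 4.96 in males. It was carried by 5 of 19 Mut female, 0 of 9 WT female, 2 of 15 Mut male and 0 of 19 WT male cells. Nr2f2 was at 2.21 and 0.28, Adarb2 at 0.46 and 2.60, and Sp8 at -1.55 and 0.37. Vip was carried by 1 WT female cell and no other, and Htr3a by none. The 6 markers summed to a median of 5.39 CPM in Mut cells and 4.55 CPM in WT cells. The part of RNA of other cell types, of the mix of interneurons or of gene detection in the levels of the 7 genes was not tested. In these sums, fewer cells expressing a gene and less of its RNA per cell cannot be told apart, which is why the counts of carriers stand beside them.

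Between the sexes, which had no role in choosing the genes, a test was possible over the 4 sums with genotype as a covariate. None of the 7 genes passed in edgeR's quasi-likelihood test with Benjamini-Hochberg adjustment over all 16435 genes, and none of the 16435 did (0%), with 637 (3.88%) at an unadjusted p under 0.05. DESeq2 passed 711 genes (4.33%), again with none of the 7. Kcnd2 was higher in males of both genotypes, at 81.4 CPM in Mut males and 120 CPM in WT males, against 39.4 CPM in Mut females and 75.4 CPM in WT females. Its log2 fold change was 0.86 (SE 0.57, unadjusted p = 0.196, adjusted p = 1 in edgeR). The pyramidal markers summed above had higher medians in males as well, and their part in this was not tested. Dpp10 was lower in males of both genotypes, with a log2 fold change of -0.65 (SE 0.45, unadjusted p = 0.212, adjusted p = 1 in edgeR). The other 5 genes had fold changes between -0.64 (Kcnd3) and 1.62 (Kcnip4, SE 2.96), with unadjusted p from 0.363 to 0.790 in edgeR. Data of 4 sums were simulated with the spread seen here, a coefficient of variation of 0.958, the same for every gene. In them the edgeR test recovered 0% of 4-fold and of 16-fold changes, against 97% and 100% at a coefficient of 0.1. At the spread of these sums, sex differences of that size were thus not detectable with the edgeR test. DESeq2 was not run on simulated data.

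A cell carried a median of 3 of the 7 genes. The median was 2 in Mut females, 3 in WT females, 3 in Mut males and 4 in WT males, and the range over all cells was 0 to 7. No Mut cell carried more than 5, and 3 WT cells, all male, carried 6 or 7. The 62 cells showed 36 different combinations, 25 of them in a lone cell. The most common were Kcnd2 alone, in 6 cells, and the set of Kcnd2, Kcnip1, Kcnip2, Dpp6 and Dpp10, which has every kind of subunit, also in 6 cells (3 of them Mut). Kcnip1 with Dpp10 and no other gene of the 7 was seen in 4 cells, all of them Mut. The number carried went with the number of genes a cell showed: cells with 0 or 1 of the 7 had a median of 2970.5 genes at 10 CPM or more, against 5103 in cells with 5 or more.

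The closest pair was Kcnip1 and Dpp10. Of 32 cells with Kcnip1, 28 also carried Dpp10, where the product of their shares gives 20.6. The Spearman correlation of their TPM was 0.47 over 62 cells, 0.49 over Mut cells and 0.55 over WT cells. Kcnip2 and Dpp10 came together in 22 cells, where the product gives 18.1, with a correlation of 0.23 that was -0.01 in Mut and 0.50 in WT cells. Kcnd2 and Dpp10, both common, had a correlation of -0.23 and shared 20 cells, where the product gives 20.6. These correlations across cells are descriptions, since cells may share animals and differ in how many genes they show.

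**Figure D4:**
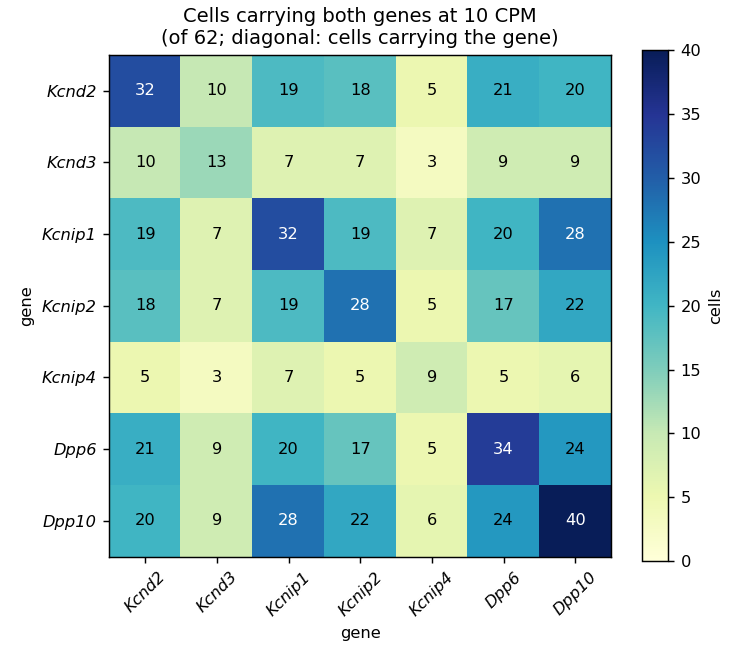
Number of the 62 cells that carried both genes of a pair at 10 CPM or more, with the number carrying each gene on the diagonal. Kcnip1 and Dpp10 share 28 cells, the most of any pair.

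The share of cells carrying these genes also varied with other interneuron genes. Dpp10 was carried by 31 of 37 cells with Erbb4, the neuregulin receptor of MGE interneurons, and by 9 of 25 without it. Kcnip1 was carried by 25 of the 37 Erbb4 cells and by 7 of the 25 others. With Sst, the peptide somatostatin, the order was the other way for Kcnip1, which was carried by 6 of 21 Sst cells and 26 of 41 others. Kcnip2 was carried by 19 of 30 cells with Tac1, the substance P precursor, and 9 of 32 without it. Of the 5 cells without Lhx6, none carried Kcnd3, Kcnip1, Kcnip2 or Dpp10, while 2 carried Kcnd2 and 2 Dpp6. Cells with Erbb4 showed a median of 4763 genes at 10 CPM or more against 3253 in cells without it, and cells without Lhx6 showed 3228 against 4139 in the others. Cells with Tac1 showed a median of 4758.5 genes against 3719 in cells without it. For Sst that gap ran the other way from Kcnip1, with 4337 genes in Sst cells and 3963 in the others. The part of gene detection in these splits, which were chosen after seeing the data, was not tested.

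Across the 62 cells, the genes whose TPM most resembled each member were ranked among 6452 genes carried by 15 or more cells. For Kcnip1 they were Prickle1 (a planar polarity gene, Spearman 0.64), Mef2c (a transcription factor of MGE interneurons, 0.60) and Bcar1 (0.55), and Mef2c was carried by all 62 cells. For Dpp10 they were Nudt4 (0.61), Cdh4 (a cadherin, 0.57) and Trappc6b (0.56). For Kcnip2 they were Fam78b (0.64), Zdhhc17 (0.63) and Ppm1l (0.60). For Kcnd2 (Rpp30, Pdap1 and Parp1) the highest was 0.52, and for Dpp6 (Mrpl18, Pno1 and Amn1) 0.49. Kcnd3 and Kcnip4 were carried by too few cells to be ranked.

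The deposited counts and TPM together carry a further measure, the length of transcript to which a gene's reads were assigned. It was calibrated in each cell on a median of 288.5 genes with a single annotated transcript, 87.7% of which fell within a factor of 0.8 in either direction of their annotated length, and was computed after seeing the data. Kcnd2 has 1 annotated transcript, of 5152 bases, and its implied length was 5362 to 5933 bases in all 32 carriers. With 1 transcript a near-constant length is given in advance, and Kcnd2 was itself among the calibration genes. The precision of the measure for genes whose reads are split among transcripts was not tested. Kcnip1 was also uniform, at 1668 to 2136 bases, near its coding transcripts of 1749 and 1840 bases. Kcnip2 varied more, from 937 to 2869 bases, with the lowest in Mut male cell 7, and it has coding transcripts of 1005 to 2395 bases beside shorter ones. Kcnd3 carriers ran from 2651 to 8186 bases, with annotated coding transcripts of 2102, 2668 and 7169 bases.

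Dpp10 spanned the widest range of the 7 genes in this measure, 5.69-fold over its carriers. That rank rests on 2 carriers near the limit of 10 CPM, WT male cell 8 and Mut male cell 8. The other carriers ran from 2987 to 8948 bases. The annotation gives it 2 transcripts of 26 exons each, Dpp10-201 of 4477 bases and Dpp10-202 of 15297 bases, the longer with an exon of 12913 bases. The transcript set the authors quantified against is not given in the sources used here. All 33 cells at 50 CPM or more had an implied length under 10000 bases, with a median of 4842. Below 50 CPM, 10 of 27 cells with at least 10 reads were above 10000 bases, and the highest was at 17866. The 10 cells comprised 0 of 19 Mut female, 1 of 8 WT female, 3 of 14 Mut male and 6 of 19 WT male cells with 10 reads. Among those below 50 CPM, they were 0 of 5 Mut female, 1 of 3 WT female, 3 of 5 Mut male and 6 of 14 WT male cells. Among carriers only WT male cell 8, at 10.6 CPM, and Mut male cell 8, at 12.8 CPM, were of this kind. The 10 cells had 15 to 84 Dpp10 reads each. At 50 CPM or more, the number of cells with Dpp10 was 23 of 34 Mut and 10 of 28 WT cells.

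**Figure D5:**
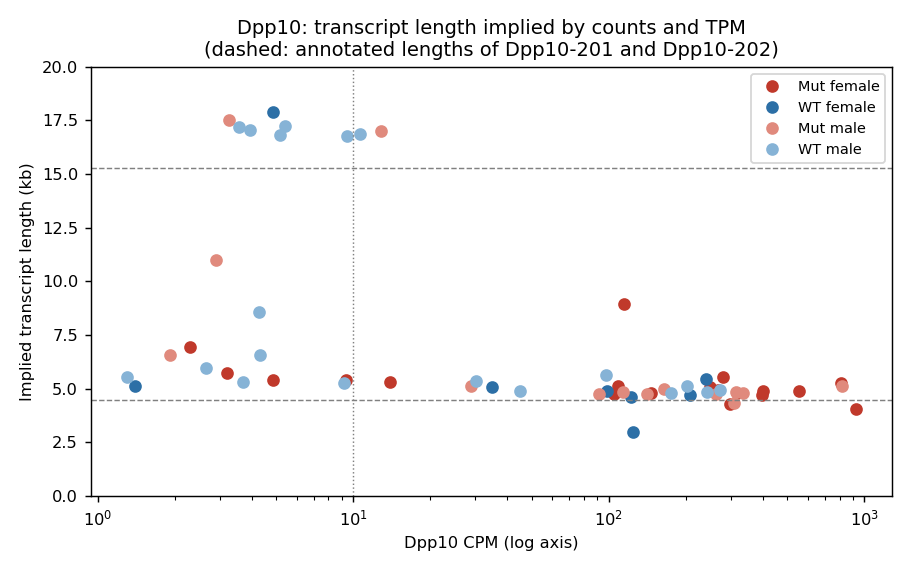
Implied transcript length of Dpp10 in kilobases against its CPM (log axis) in the 60 cells with at least 10 reads, by group. Dashed lines mark the annotated lengths of Dpp10-201 and Dpp10-202; all 33 cells at 50 CPM or more lie under 10 kb, and 10 of the 27 cells below 50 CPM lie above it.

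Other genes around the Kv4 complex were described from lists. Of 4 other A-type pore genes, all tested, none was at -1 or less in either sex, against 18.2% of genes tested in females and 17.4% in males. At 1 or more in both sexes was 1 gene, against 5.11% of genes tested. That gene was Kcna4 (Kv1.4), at 10.13 CPM in Mut females against 0.0188 CPM in WT females, and at 6.20 CPM in Mut males against 0.0838 CPM in WT males, carried by 1 cell in each Mut group. Kcnd1, the third Kv4 gene, stood at 0.434 CPM in Mut females against 0.432 CPM in WT females, and at 2.02 CPM in Mut males against 3.89 CPM in WT males. Of 8 other auxiliary genes, 5 passed the filter on low counts. Of these, 4 were below 0 in both sexes, against 25% of genes tested. In each sex 1 was at -1 or less, against 18.2% of genes tested in females and 17.4% in males. Ncs1, a neuronal calcium sensor that binds Kv4, was the most abundant and even, at 248 CPM in Mut females against 266 CPM in WT females, and at 212 CPM in Mut males against 242 CPM in WT males. Kcnip3 (KChIP3) stood at 19.4 CPM in Mut females against 81.0 CPM in WT females, and at 2.52 CPM in Mut males against 4.96 CPM in WT males, carried by 5 cells in all.

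Of 4 peptidase relatives of the DPP subunits, Dpp9 was at 1.59 in females and -1.46 in males on the log2 scale, and Dpp8 at -1.18 and 0.93. Of 12 delayed rectifier and low-threshold channel genes, 2 were at 1 or more and 3 at -1 or less in females, 4 and 3 in males, and none in both sexes. Over all genes tested these shares were 23.1% and 18.2% in females and 16.7% and 17.4% in males. In both sexes they were 5.11% and 3.77%. Among these Kcnc2, a Kv3 pore gene of fast-spiking interneurons, stood at 122 CPM in Mut females against 46.0 CPM in WT females, and at 60.1 CPM in Mut males against 37.3 CPM in WT males.

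The 5 contaminated cells lay mostly within the range of the unmarked WT cells of their sex. The WT female contaminated cell had 49.7 CPM of Kcnd2, 92.9 of Kcnd3, 53.7 of Kcnip1, 194 of Dpp6 and 44.6 of Dpp10. It also had 71.1 CPM of Kcnip4, against at most 2.01 CPM in unmarked WT female cells. In the 4 WT male contaminated cells Dpp10 lay between 1.08 and 6.23 CPM, and none carried it or Kcnip4. These cells held 3613 (female) and 12403 to 14532 (male) CPM of the 11 microglial markers summed.

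The 9 removed cells included several of the highest values. Kcnip4 stood at 1183 CPM in Mut female cell 12, against at most 249 CPM in a used cell. Dpp6 stood at 1427 CPM in Mut male cell 13 and Kcnip2 at 882 CPM in WT male cell 2, against at most 1086 and 487 CPM in used cells. Kcnd3 stood at 235 CPM in Mut male cell 15, above every used Mut cell. Mut male cell 13, WT male cell 2 and Mut male cell 15 held 2527119, 2633230 and 1879702 counts. All of these are below the lowest used cell, at 2946456, while Mut female cell 12 held 6253603. With the removed cells added, the Kcnip4 ratio in females was 5.20, and the Kcnd3 ratios were -3.13 in females and -2.41 in males.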

How the data were processed

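Per the labels, single cells were aspirated during patch recording and made into Nextera XT libraries. Per the submitters' processing notes, reads were quantified with kallisto on GRCm38; the version, index and use of strand are not given in the sources used here. The authors deposited expected counts (estimated counts, not whole numbers) per gene before and after a quality filter, and TPM after it. The criterion of the filter, the basis of the contamination mark, and any animal or batch are not given in the sources used here. Columns of other samples (52 before, 44 after the filter) were not used.

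The members and gene lists were chosen with earlier results of these data known. The 62 cells were summed by group, rounded, and scaled by TMM (factors 1.04 Mut female, 0.865 WT female, 1.02 Mut male, 1.09 WT male). Genotype ratios take CPM of the sums plus 1 CPM and have no test. The sex contrast was fitted in edgeR 4.0.16 (glmQLFTest, quasi-likelihood, genotype as covariate, filterByExpr, threshold 0.05), with DESeq2 1.42.0 as an alternative. edgeR estimated a coefficient of variation of 0.958, with 3.6 prior degrees of freedom. The fit was tested on simulated data with 100 genes changed by 4-fold and 100 by 16-fold: at that spread it recovered 0% of both, and at a coefficient of 0.1 it recovered 97% and 100%, with 5 false calls. P-values measure the spread between these sums only.

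The CPM of a cell is its count over the cell's total, and differs in scale from that of the sums. Poisson and exact binomial intervals are at 95%. Libraries have no molecular identifiers, so reads can be copies of 1 molecule and intervals cover counting error only. Besides the 7 members, the text names up to 4 abundant genes of each list and, for members carried by 15 or more cells, the 3 genes of highest Spearman correlation of log2(TPM + 1), without Gm and Rik names; Kcnd1, Kcnip3, Kcna4, Dpp8 and Dpp9 come from these lists. Some genes of these lists, and the list of anchors and kinases of Kv4, are not reported here. Cell numbers follow label order.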

Additional observations from a re-analysis of the deposited data

Results flagged for a closer look

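Of 14 sets of cells examined for a value far from the others of its group (groups of 4 to 10 cells), 2 held one. The rule's nominal chance rate of about 1 in 20 was not checked for values as uneven as these. In WT females the highest cell held 60.0% of the counts for the median gene tested. The sets also share the same cells, so nothing is read from the number flagged. Kcnip2 stood at 43.2 CPM in WT male contaminated cell 2, while the next of the 4 cells stood at 0.658 CPM. Dpp6 stood at 650 CPM in WT female cell 9, while the next of the 9 cells stood at 141 CPM, and this cell sets the sign of the female Dpp6 ratio.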

How the results depend on the processing

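Dpp10 was above 0 and Kcnd2 and Kcnd3 below 0 in both sexes under each of 12 alternatives and with each cell left out. Their sizes moved. Over the 12 alternatives Kcnd2 ran from -3.12 to -0.25 in females and from -3.79 to -0.31 in males. Dpp10 ran from 1.21 to 1.67 in females and from 1.43 to 3.78 in males. Kcnd3 ran from -3.50 to -0.01 in females and from -4.63 to -0.81 in males. Leaving out single cells went beyond some of these ranges. It took Kcnd2 in males to -0.093 and Dpp10 in males to 1.27. Kcnd3 reached -3.69 in females and -5.10 in males. The sign turned for Kcnip4 in females with medians over cells (-0.16), and for Dpp6 in females without the highest cell of each sum (0.28) and without WT female cell 9 (0.74, the range over single cells being -1.46 to 0.74). Without Neurod6 carriers Kcnip2 turned to 2.96 in females and 1.84 in males, and Dpp6 in males to 1.08. Kcnip2 in males, near 0, was also at 0.02 with median-of-ratios size factors and 0.10 with mean TPM, and in females at 0.07 with medians over cells. Kcnip1 in females also crossed 0, with medians over cells (-4.95), means over cells (-1.70) or without the highest cell of each sum (-1.14), as did Kcnip2 in females without the highest cell of each sum (0.87).

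The median ratio of the 7 genes, -0.62 in females and -0.25 in males, was -0.35 and -0.34 with library totals, -0.28 and -0.31 with mean TPM, and -0.16 and -0.81 with medians over cells. It was 1.21 and 1.08 without Neurod6 carriers, -0.25 and -0.15 with only Lhx6 and Gad cells, and -0.71 and -0.42 with the removed cells. Among alternatives chosen after seeing the data, it was -0.28 and -0.30 without cells carrying microglial markers, and 0.28 and -0.46 without the highest cell of each sum. With means over cells it was -0.60 in males. With 1 cell left out it ran from -0.97 to 0.60 in females and from -0.45 to -0.047 in males. The causes were not tested.

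For sex, DESeq2 called 711 genes (448 higher and 263 lower in males) against 0 in edgeR, none of them a member; scaling, filter and covariate left 0, as did each cell left out (0 to 0). The median number of genes carried was 5 at a limit of 1 CPM. The leading member of each family kept its place with CPM or a lower limit. No paired analysis was possible because the labels name no animal, litter or replicate number shared between groups.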
